A study of Mus musculus with 6 samples.

Results

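*Ccr2* and the genes of 4 chemokines that act on monocytes, *Ccl2*, *Ccl7*, *Ccl8* and *Ccl12*, were followed in spinal cord leukocytes and naive microglia of young and middle-aged mice. The 5 genes were chosen by name. All 5 were among the 19449 genes of the single-cell table and the 55351 genes of the bulk table. The study asked how the age of the recipient shapes experimental autoimmune encephalomyelitis (EAE), a model of multiple sclerosis. Naive C57BL/6 recipients, young (8 to 12 weeks) or middle-aged (40 to 44 weeks), all received CD4+ T cells that were reactive to the myelin peptide MOG35-55 and polarized with IL-23. CD45+ cells were sorted from the spinal cord on day 6 or day 10 after transfer, with 4 spinal cords pooled into 1 library for each age and day, so variation between mice cannot be seen. In addition, CD45int CD11b+ microglia of naive mice were sequenced in bulk, in 1 library per age.

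CCR2 is a G protein–coupled receptor of classical, inflammatory monocytes. It is needed for their release from the bone marrow and for their entry into the inflamed central nervous system, which makes it one of the best known receptors in EAE. CCL2, CCL7 and CCL12 bind it, and are made by activated macrophages, microglia, astrocytes and other cells after signals such as TNF, IL-1 and interferons. CCL8 belongs to the same family of monocyte chemoattractants, and in mice it is also known as a ligand of CCR8.

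The 4 single-cell libraries held 8315 to 10026 cells and 57337626 to 69859331 unique molecular identifiers (UMIs, tags that count each captured transcript once), with medians of 4704.5 to 6196 UMIs per cell. Pairs of libraries shared 13 to 36 cell barcodes, at most 0.366% of the smaller library. The deposited table gives 16 numbered clusters without cell types. By fixed marker lists, clusters 1 and 5 were monocyte/macrophage-like, 10 microglia-like, 0 neutrophil-like, 2 T cell-like, 4 B cell-like, 7 dendritic cell-like and 9 NK-like. Cluster 8 was left unnamed. Its microglial markers had a median log2 ratio of 2.33 to the other clusters, and 10 of 10 were more than 2-fold higher. None was among its 10 leading genes, but the same held for named clusters 0 and 1. The medians of their own markers were 0.646 and 1.52. In young day 6 the median cell of cluster 8 held only 2059 UMIs. Its monocyte/macrophage markers (10 listed) summed to 1668, 2772, 15275 and 18076 CPM (UMIs per 1000000 UMIs of the cluster, in the order young day 6, middle-aged day 6, young day 10, middle-aged day 10). Cluster 5 held T cell markers at 339 to 1491 CPM and neutrophil markers at 5474 to 15942. In cluster 10 the monocyte/macrophage markers summed to 3459 to 5158, and the microglial markers to 6517 to 10534.

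UMIs were summed over the cells of a cluster in a library and are given as CPM of that cluster, with an exact Poisson 95% interval in brackets that covers counting error only. Each UMI is a 3′ tag, so transcript length does not enter. Values keep the order of libraries given above for cluster 8. Within a day each age has 1 library, so no test between ages was possible there. Ages were compared over both days, and days over both ages, in edgeR on the 4 libraries, with 1 residual degree of freedom. The libraries of a day may also share their handling, and day and handling cannot be told apart.

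On chromosome 11 of mouse build GRCm38 the 4 ligand genes lie on the plus strand within 81.2 kb. *Ccl2* spans 82035571 to 82037453, *Ccl7* 82045712 to 82047525, *Ccl12* 82101845 to 82103400 and *Ccl8* 82115185 to 82116799, each with at most 3 exons, and *Ccl11* lies between *Ccl7* and *Ccl12*. *Ccr2* lies on chromosome 9, at 124101950 to 124113557 on the plus strand.

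*Ccl12* and *Ccl8* are neighbours whose levels differed widely in microglia-like cells, so the 250 bases before their start sites are shown, 5′ to 3′ on the plus strand, from the RefSeq promoter table of GRCm38.p6. Promoters of *Ccl2* and *Ccl7* were not printed. Capitals mark the PU.1 core GAGGAA on either strand and the box TATAAA.
Ccl12, chr11:82101595-82101844: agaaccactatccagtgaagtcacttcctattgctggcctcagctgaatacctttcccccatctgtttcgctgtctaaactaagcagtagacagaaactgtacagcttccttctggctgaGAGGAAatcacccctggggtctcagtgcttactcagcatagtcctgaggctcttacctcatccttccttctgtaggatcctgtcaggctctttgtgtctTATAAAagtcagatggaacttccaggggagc
Ccl8, chr11:82114935-82115184: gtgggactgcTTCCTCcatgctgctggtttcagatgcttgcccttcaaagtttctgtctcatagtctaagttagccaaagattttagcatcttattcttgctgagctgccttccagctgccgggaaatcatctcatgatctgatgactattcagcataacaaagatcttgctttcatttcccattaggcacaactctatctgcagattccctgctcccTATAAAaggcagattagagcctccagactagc

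Both windows held TATAAA, at -31 from the start in *Ccl12* and -32 in *Ccl8*. GAGGAA stood at -130 in *Ccl12* and, on the minus strand, at -240 in *Ccl8*. Of 27025 promoter windows of this length, 12.97% held TATAAA and 23.1% GAGGAA. Neither window held the AP-1 (TGANTCA), GAS (TTCNNNGAA), C/EBP (TTNNGNAA), NF-kB or ISRE letters that were searched on both strands, which 6.87%, 7.18%, 36.9%, 1.40% and 3.04% of all windows held. The windows were alike at 147 of 232 aligned bases, 63.4%.

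*Ccl2*, which encodes the principal CCR2 ligand, was abundant in monocyte/macrophage-like and microglia-like cells. In cluster 1 it stood at 1336 [1321 to 1352], 1925 [1908 to 1942], 351 [343 to 359] and 376 [369 to 384] CPM. In cluster 5 it stood at 1442 [1416 to 1469], 2033 [1999 to 2067], 458 [438 to 478] and 478 [457 to 499] CPM. Both day 10 libraries were thus below both day 6 libraries, and on day 6 the middle-aged library was the higher one in both clusters.

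Microglia-like cluster 10 had *Ccl2* at 2444 [2392 to 2497], 3136 [3066 to 3208], 2622 [2569 to 2676] and 2202 [2151 to 2254] CPM. Here the days overlapped, and each of the 4 libraries was above the same library's monocyte/macrophage-like clusters. In cluster 8 the values were 905, 615, 278 and 265 CPM, again lower on day 10.

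Neutrophil-like cluster 0 showed the opposite order, with *Ccl2* at 73.4 [65.9 to 81.6], 79.0 [73.6 to 84.6], 258 [243 to 273] and 420 [403 to 437] CPM. Most genes of cluster 0 with 100 or more UMIs were also higher in CPM on day 10. Their median log2 ratio was 0.577 in young and 0.677 in middle-aged mice, and 31.2% and 36.1% were at least 2-fold higher. T cell-like, NK-like and B cell-like cells, which are not known as main sources of CCL2, had 6.28 to 34.4 CPM in any library. Astrocytes, a known source, are outside a CD45+ sort.

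Shares of cells with a UMI followed the same order when each cell was thinned to 2000 UMIs. In cluster 10, 72.0%, 91.6%, 73.2% and 69.4% of cells held *Ccl2*, and in cluster 1, 50.2%, 54.5%, 21.6% and 23.4%. Cluster 0 had 5.63%, 8.49%, 13.1% and 17.8%. B cell-like cells, taken as background, had 4.38%, 6.17%, 3.08% and 2.23%, so the day 6 shares of cluster 0 stood only slightly above it. Median depths before thinning were 2193 to 2365 UMIs in cluster 0, 2402 to 2997 in cluster 4, 6931 to 10000 in cluster 10 and 8311 to 10094.5 in cluster 1. Thinning left out 459, 1442, 565 and 668 cells of cluster 0, which held 1489 to 3880, but at most 29 of any library in clusters 1 and 10. Without thinning, the cluster 0 shares were 8.33%, 10.95%, 12.96% and 18.3%, and those of cluster 4 were 5.08%, 5.98%, 3.87% and 3.85%.

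*Ccl2* was unevenly spread over cells. In cluster 1 the median cell held 3 and 4 UMIs on day 6 and 0 in both libraries of day 10, and the top 10% of cells by UMIs accounted for 54.3%, 55.4%, 76.7% and 76.3% of all. In cluster 10 the median cell held 8, 23, 12 and 10 UMIs, and the top 10% of cells accounted for 33.01% to 42.5%.

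**Figure D1:**
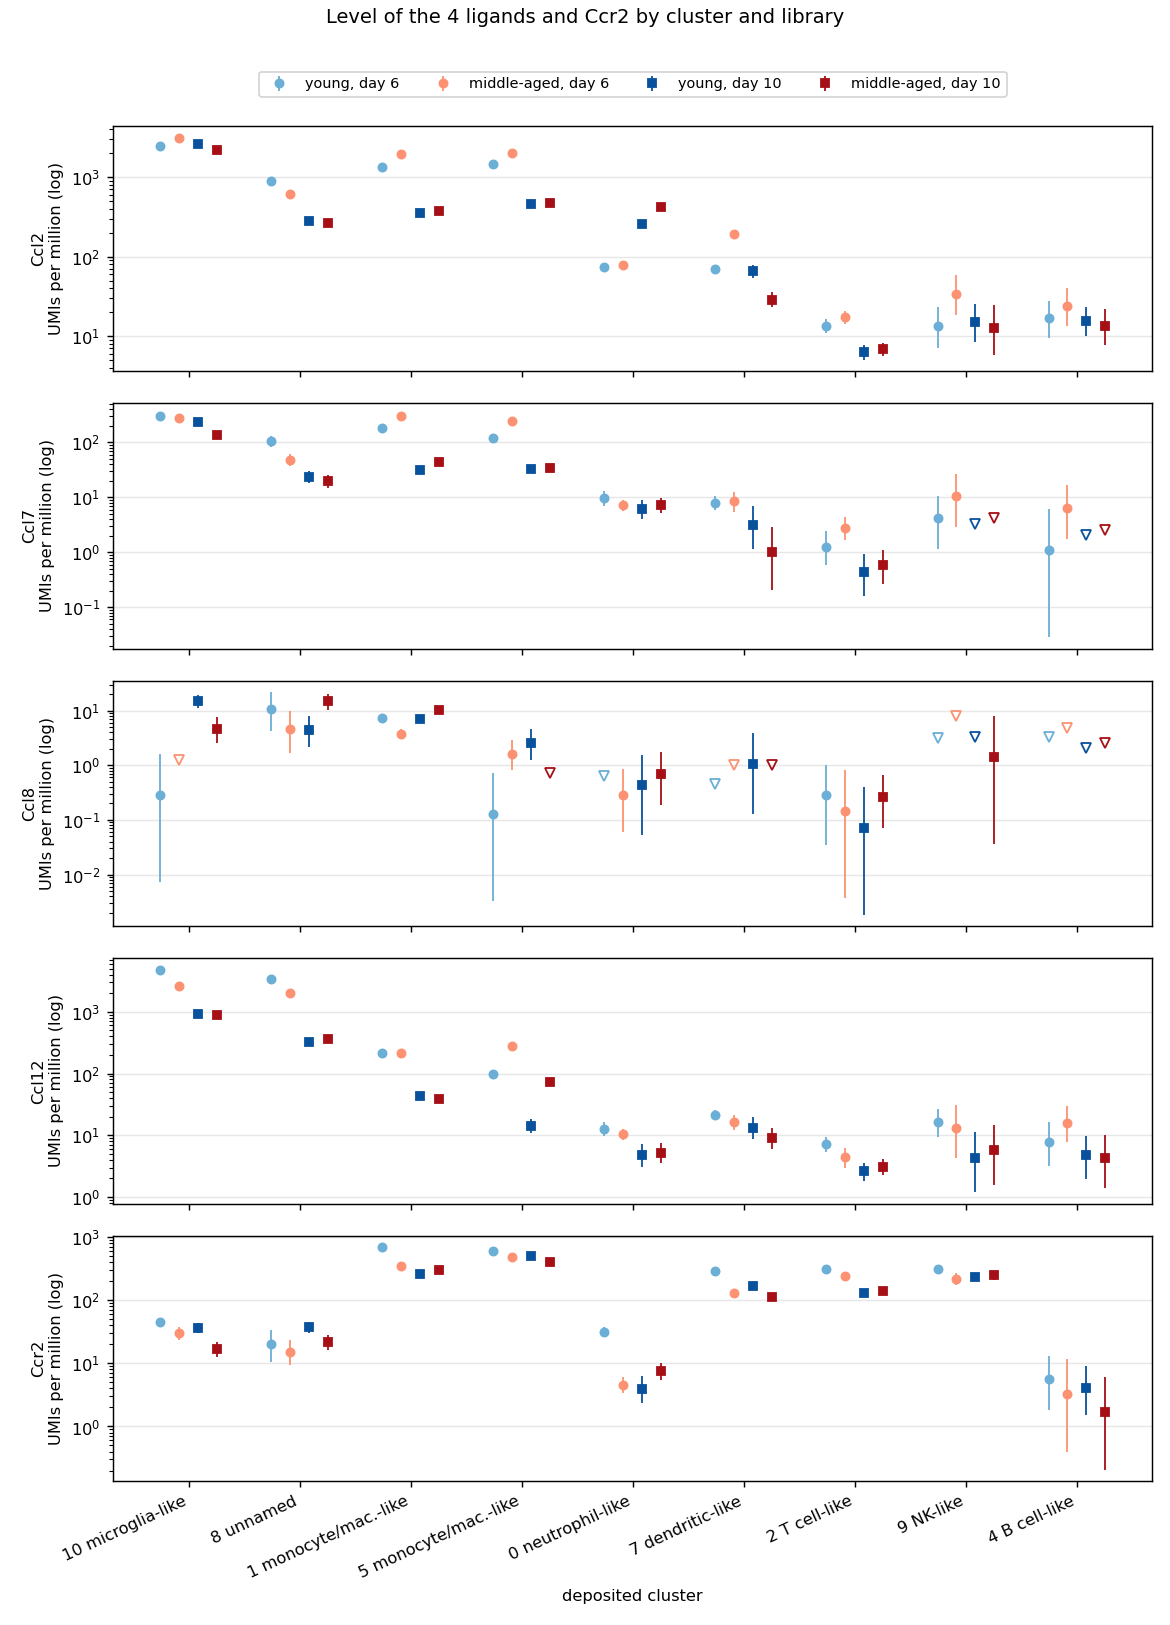
Level of each gene by deposited cluster and library, in CPM (UMIs per 1000000) on a log axis, with exact Poisson 95% intervals as bars; open triangles mark the level of 3 UMIs where a library held none. *Ccl2* of clusters 1 and 5 stands lower in both day 10 libraries, while in cluster 10 all 4 libraries lie between 2202 and 3136.

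*Ccl7* was lower than *Ccl2* in clusters 1, 5, 8 and 10 in each library. It encodes a second CCR2 ligand, which also binds other CC receptors, and was found at 180 [175 to 186], 299 [292 to 305], 31.1 [28.8 to 33.5] and 43.3 [40.7 to 45.9] CPM in cluster 1. Cluster 5 had 122, 241, 33.1 and 34.3 CPM. In cluster 10 it stood at 304 [286 to 323], 275 [254 to 297], 238 [222 to 254] and 135 [123 to 148] CPM. The middle-aged library was the higher one on both days in cluster 1 and on day 6 in cluster 5, where the ages differed by less than counting error on day 10. However, a single cell held 68.5% of the 143 *Ccl7* UMIs of cluster 5 in young mice on day 10. Without thinning, 3.42% of young and 8.43% of middle-aged cells of cluster 5 held *Ccl7* on that day. The like CPM values there thus do not show that the ages were alike. In cluster 10 the middle-aged library was the lower one on both days.

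*Ccl7* was also found mainly in cells that held *Ccl2*. After thinning, 17.3%, 23.8%, 9.72% and 13.6% of cluster 1 cells with a *Ccl2* UMI held *Ccl7*, against 1.53%, 2.81%, 0.534% and 1.13% of cells without. In cluster 10 the shares were 16.2%, 21.4%, 19.1% and 20.5% against 4.35%, 11.1%, 1.06% and 0.990%. These shares describe cells of 4 libraries and carry no test.

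*Ccl12*, a mouse CCR2 ligand with no clear human counterpart, was the member most concentrated in microglia-like cells. Cluster 10 held it at 4806 [4733 to 4880], 2580 [2516 to 2646], 913 [881 to 945] and 895 [863 to 929] CPM, and cluster 8 at 3355, 2011, 329 and 357. Cluster 1 had 215, 217, 42.4 and 38.6 CPM. In these 3 clusters both day 10 libraries were below both day 6 libraries, and in clusters 10 and 8 the young library was the higher one on day 6.

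Cluster 5 was different by age, with *Ccl12* at 97.8 [91.0 to 105], 276 [264 to 289], 14.3 [10.99 to 18.4] and 72.9 [65.0 to 81.6] CPM. The middle-aged library was the higher one on both days. The young values rest on 763 and 62 UMIs, and the middle-aged ones on 1871 and 306. A single cell held 40.2% of the 306. On day 10 the 10 cells with the most UMIs held 54.8% of the young and 69.3% of the middle-aged UMIs.

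After thinning, 81.5%, 79.0%, 50.1% and 49.7% of cluster 10 cells held *Ccl12*, and 80.3%, 73.1%, 27.8% and 28.8% of cluster 8 cells. In both clusters the shares on day 10 were below those on day 6 at either age. The median cell of cluster 10 held 19, 15, 2 and 3 UMIs of it.

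Relative to *Ccl2*, *Ccl12* separated clusters 10 and 8 from clusters 1 and 5. It also separated the days in clusters 10 and 8, while in clusters 1 and 5 the days overlapped. There were 1.97 [1.92 to 2.02], 0.823 [0.795 to 0.851], 0.348 [0.334 to 0.362] and 0.407 [0.389 to 0.425] *Ccl12* UMIs per *Ccl2* UMI in cluster 10. In cluster 8 the ratios were 3.71, 3.27, 1.18 and 1.35, in cluster 1 0.161, 0.113, 0.121 and 0.102, and in cluster 5 0.0678, 0.136, 0.0313 and 0.153. Every ratio of clusters 10 and 8 was above every ratio of clusters 1 and 5. That of *Ccl7* to *Ccl2* lay between 0.0613 and 0.155 in all 4 clusters and libraries.

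**Figure D2:**
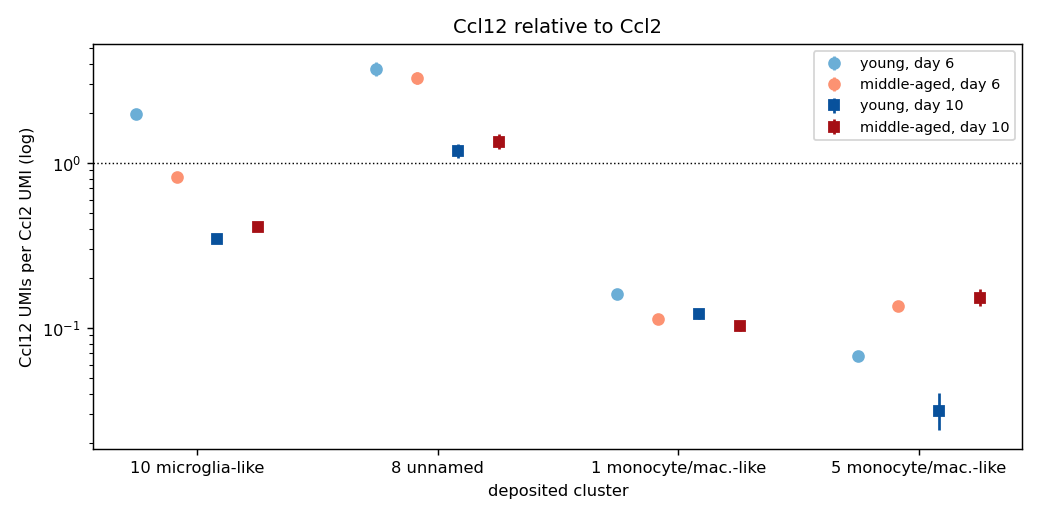
*Ccl12* UMIs per *Ccl2* UMI on a log axis in clusters 10, 8, 1 and 5, with 1 point per library and 95% intervals for counting error; the dotted line marks equal counts. Cluster 10 goes from 1.97 in young mice on day 6 to 0.348 on day 10.

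*Ccl8* was rare, with 178, 120, 243 and 314 UMIs in the whole libraries. Cluster 1 held 167, 99, 163 and 252 of them, at 7.49, 3.77, 7.19 and 10.3 CPM, in 0.839%, 0.543%, 1.48% and 1.76% of its cells. A single cell held 47.9% of the UMIs of young day 6. Cluster 10 held 1, 0, 52 and 15 UMIs, and 1 cell held 71.2% of the 52. No UMI of *Ccl8* was found in B cell-like cells, where 3 UMIs would be 2.05 to 4.82 CPM.

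*Ccr2*, the receptor, was high in the monocyte/macrophage-like clusters and low in cluster 10. It stood at 691 [680 to 702], 350 [343 to 358], 259 [253 to 266] and 302 [295 to 309] CPM in cluster 1, so that young day 6 stood apart from the other libraries. Within an age, the log2 ratio of day 10 to day 6 was -1.41 [-1.46 to -1.37] in young and -0.21 [-0.26 to -0.17] in middle-aged mice, and whether the ages differ in it could not be tested. Cluster 5 had 596 [579 to 614], 489 [472 to 506], 504 [484 to 526] and 404 [385 to 424] CPM, with the days overlapping.

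T cell-like cluster 2 had *Ccr2* at 311 [298 to 325], 238 [226 to 249], 129 [123 to 135] and 140 [134 to 146] CPM, and both day 10 libraries were the lower ones. NK-like cluster 9 had 309, 219, 231 and 248 CPM and dendritic cell-like cluster 7 had 288, 129, 171 and 112. In cluster 7 the middle-aged library was the lower one on both days.

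Microglia-like cluster 10 had 45.1, 29.8, 36.7 and 16.7 CPM of *Ccr2*. Without cells that held markers of another lineage it had 5.07, 2.50, 8.54 and 3.43 CPM, on 11, 3, 8 and 4 UMIs. B cell-like cells had 5.60, 3.21, 4.10 and 1.70 CPM and neutrophil-like cluster 0 had 31.5, 4.57, 3.92 and 7.49.

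After thinning, *Ccr2* was seen in 60.1%, 39.6%, 29.8% and 33.4% of cluster 1 cells, and in 56.5%, 54.3%, 60.4% and 50% of cluster 5 cells. Cluster 10 had 3.89%, 2.80%, 2.85% and 2.12%, and B cell-like cells 1.09%, 1.23% and 0.948% in the first 3 libraries. In the last, 0 of 314 cells held it, which allows a share of up to 0.955%. Cells of cluster 1 that held *Ccl2* held *Ccr2* in 62.8%, 43.0%, 34.6% and 43.3%, against 57.4%, 35.4%, 28.5% and 30.4% of those without it. In cluster 5 the shares were 55.8%, 52.1%, 70.2% and 60.6%, against 57.3%, 58.4%, 56.2% and 45.7%. Ligand and receptor were thus often found in the same cell, with no like order of the shares in both clusters.

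Most UMIs of *Ccl2* came from cluster 1 on day 6, with 58.1% and 68.0% of the library's, and 36.6% and 41.6% on day 10. Cluster 10 held 16.4% and 10.1% on day 6, and 42.4% and 32.2% on day 10. It made up 5.20%, 2.15%, 3.68% and 3.38% of the cells. The share of cluster 0 went from 0.673% and 1.09% to 5.44% and 10.9%.

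*Ccl7* came from cluster 1 by 64.7%, 75.7%, 39.1% and 60.7%, and from cluster 10 by 16.9%, 6.32%, 46.4% and 25.04%. *Ccl12* came from cluster 10 by 67.1%, 37.0%, 61.7% and 55.9%, from cluster 1 by 19.5%, 34.3%, 18.5% and 18.2%, and from cluster 8 by 8.88%, 15.8%, 15.8% and 17.2%. Cluster 1 held 93.8%, 82.5%, 67.1% and 80.3% of *Ccl8*. *Ccr2* UMIs were in cluster 1 by 61.2%, 61.1%, 51.8% and 59.5%, in cluster 5 by 18.5%, 22.0%, 19.2% and 13.6%, and in T cell-like cluster 2 by 8.77%, 10.8%, 15.7% and 17.4%.

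**Figure D3:**
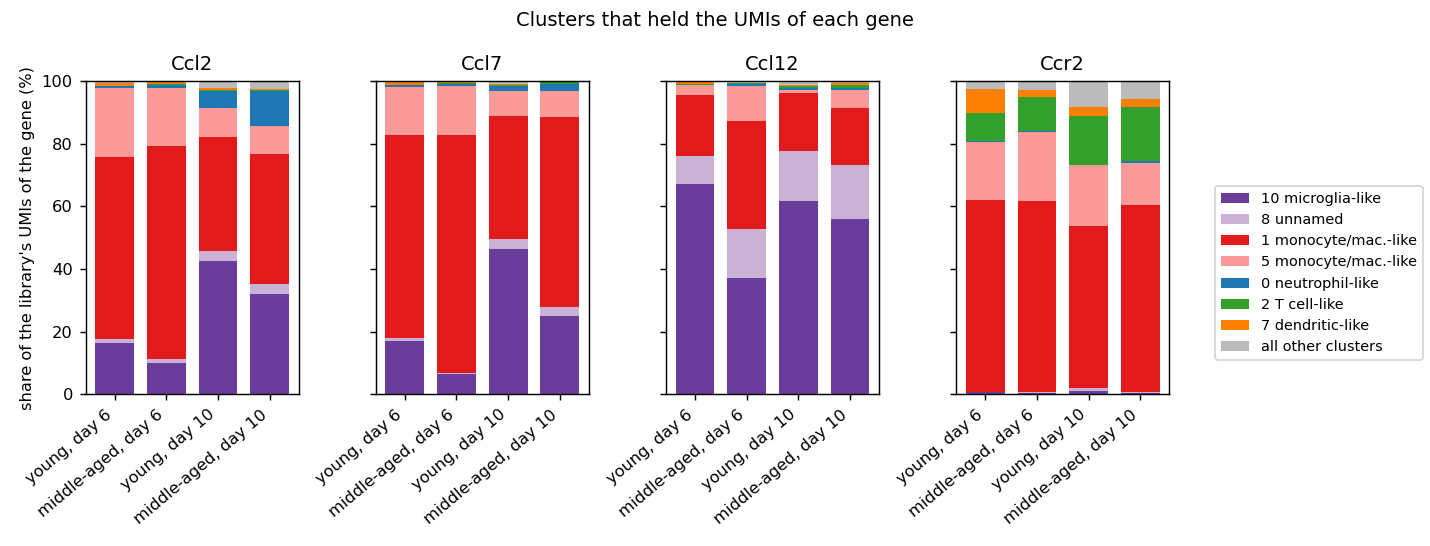
Share of each library's UMIs of a gene (%) that each cluster held, as stacked bars, 1 bar per library. For *Ccl2* the share of cluster 10 is 16.4% and 10.1% on day 6 and 42.4% and 32.2% on day 10, while *Ccr2* stays in cluster 1 by 51.8% or more.

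Between day 6 and day 10 the ligands fell in monocyte/macrophage-like cells. In cluster 1, *Ccl2* fell by 2.31 on the log2 scale (SE 0.23, adjusted p = 8.44e-06), *Ccl7* by 2.83 (SE 0.21, adjusted p = 1.51e-06) and *Ccl12* by 2.59 (SE 0.21, adjusted p = 2.28e-06), in edgeR's quasi-likelihood test over all genes of the cluster. *Ccr2* fell by 0.98 (SE 0.25, adjusted p = 0.0108). *Ccl8* moved by 0.52 (SE 0.29, adjusted p = 0.189) and was not called. Thus 4 of 5 members were called lower, where 29.9% of all genes tested in cluster 1 were called in either direction. The *Ccr2* call was lost without either day 10 library, at -0.93 without the young and -1.13 without the middle-aged one. Over all genes, fits with a lone day 10 library called fewer genes for the day than the main fit in each tested cluster.

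Cluster 5 gave the same 4 calls, against 25.5% of all genes. *Ccl2* fell by 2.16 (SE 0.15, adjusted p = 1.35e-07), *Ccl7* by 2.64 (SE 0.22, adjusted p = 7.15e-07) and *Ccl12* by 2.58 (SE 0.21, adjusted p = 5.10e-07). *Ccr2* fell by 0.55 (SE 0.15, adjusted p = 0.0142), but without cells that held markers of another lineage its change was -0.00 and not called. That fit left 617, 450, 234 and 146 of 817, 641, 409 and 344 cells. The *Ccl12* call was lost without middle-aged day 6 (-1.46) and without young day 10 (-1.64), and that of *Ccr2* without young day 6 (-0.42), young day 10 (-0.70) or middle-aged day 10 (-0.40).

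In microglia-like cluster 10, 2 of 5 members were called, against 6.64% of all genes. *Ccl12* fell by 1.81 (SE 0.36, adjusted p = 0.0105), a call that was lost without young day 10 (-1.89) or middle-aged day 10 (-1.86). In cells without markers of another lineage it stood at 5748, 2990, 1044 and 1180 CPM. *Ccl8* rose by 5.82 (SE 0.77, adjusted p = 0.0012), which rests on 67 UMIs of day 10 and 1 of day 6, and on the single cell named above for 37 of them. Its size depends on how the fit treats the library at 0. *Ccl2* changed by -0.05 (SE 0.36, adjusted p = 0.952), *Ccl7* by -0.54 (SE 0.24, adjusted p = 0.226) and *Ccr2* by -0.37 (SE 0.23, adjusted p = 0.393). None of these 3 was called.

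In cluster 8, 4 of 5 members were called, against 13.4% of all genes. DESeq2 called 2 of them, *Ccl2* and *Ccl12*. *Ccl2* fell by 1.18 (SE 0.18, adjusted p = 9.36e-05), *Ccl7* by 1.46 (SE 0.27, adjusted p = 0.000725) and *Ccl12* by 2.64 (SE 0.18, adjusted p = 2.73e-09). *Ccr2* rose by 0.96 (SE 0.31, adjusted p = 0.0468), from 13 and 20 to 93 and 54 UMIs. That call was lost without middle-aged day 6 (0.88) or young day 10 (0.65). The monocyte/macrophage markers of this cluster were also higher on day 10, as given above, and their part in the change was not tested.

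Among T cell-like cells, 2 of 3 tested members were called, against 7.22% of all genes. *Ccr2* fell by 0.91 (SE 0.19, adjusted p = 0.00475) and *Ccl2*, at 6.28 to 17.3 CPM, by 1.13 (SE 0.23, adjusted p = 0.00363). In dendritic cell-like cells 2 of 4 were called, against 6.48%, *Ccl2* at -1.47 (SE 0.40) and *Ccl7* at -2.14 (SE 0.54). DESeq2 called *Ccr2* in cluster 2 alone. The 2 T cell-like calls were lost without either day 10 library. In dendritic cell-like cells those fits, with a lone day 10 library, could not check the call of any gene. In NK-like cells neither of 2 tested members was called by edgeR or DESeq2, against 2.24% of all genes, and 0 had an unadjusted p below 0.05. *Ccr2* changed by -0.14 (SE 0.18) and *Ccl2* there by -0.52 (SE 0.46).

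Over the 7 clusters chosen for testing, 29 of 35 pairs of a member and a cluster passed the filter of 10 counts in 2 libraries. The other 6 pairs had too few UMIs to be tested. Of the tested pairs, 16 were called lower and 2 higher. Over all genes, the share called in either direction ran from 2.24% in cluster 9 to 29.9% in cluster 1.

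**Figure D4:**
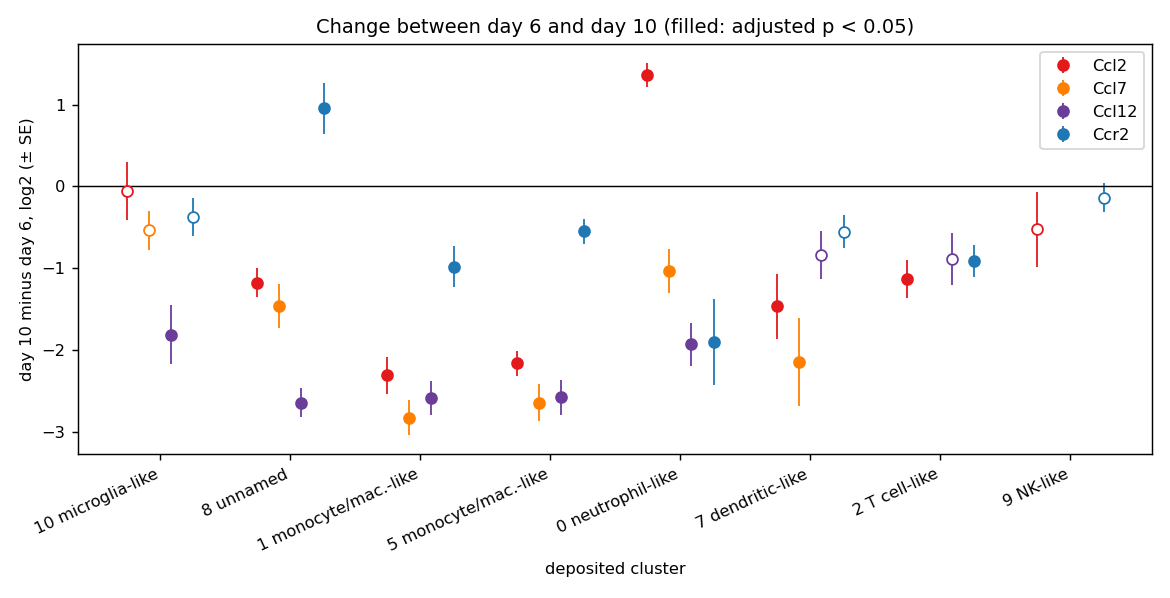
Fitted day 10 minus day 6 change (log2) of *Ccl2*, *Ccl7*, *Ccl12* and *Ccr2* by cluster, with bars of 1 SE. Filled points passed the adjusted p threshold of 0.05, and *Ccl8* is not drawn. *Ccl2* lies at -2.31 in cluster 1 and -0.05 in cluster 10, and *Ccl12* is below -1.8 in clusters 1, 5, 8 and 10.

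The change of *Ccl2* differed between microglia-like and monocyte/macrophage-like cells. In a fit over both clusters, chosen after the values were seen, the day change in cluster 10 minus that in cluster 1 was 2.25 for *Ccl2* (SE 0.22, adjusted p = 0.000534) and 2.29 for *Ccl7* (SE 0.39, adjusted p = 0.00402) on the log2 scale. Of all genes, 22.9% were called. For *Ccl12* it was 0.77 (SE 0.29, adjusted p = 0.0814), for *Ccr2* 0.66 (SE 0.36, adjusted p = 0.207), and for *Ccl8* 5.47 (SE 1.23, adjusted p = 0.0114), a call that was lost without cells that held markers of another lineage. Against cluster 5 the difference was 2.12 for *Ccl2* (adjusted p = 0.000223), 2.12 for *Ccl7* (adjusted p = 0.00241) and 0.70 for *Ccl12* (adjusted p = 0.561), with 17.9% of all genes called. The *Ccl7* difference against cluster 5 was 1.03 and not called without cells that held markers of another lineage.

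Cluster 0, fitted the same way after its values were seen, had 3 members called lower and 1 higher, where 54.4% of all genes tested were called. *Ccl2* rose by 1.37 (SE 0.15, adjusted p = 2.99e-06). *Ccl7* fell by 1.03 (SE 0.27), *Ccl12* by 1.93 (SE 0.26) and *Ccr2* by 1.91 (SE 0.53). The *Ccr2* change was -0.48 and not called without young day 6, and -0.95 and not called without cells that held markers of another lineage, and that of *Ccl7* was -0.85 and not called without young day 10. For *Ccl2* the change in cluster 0 exceeded that in cluster 1 by 3.58 (SE 0.24, adjusted p = 7.36e-05), and for *Ccl7* by 1.75 (SE 0.36, adjusted p = 0.00754), with 24.3% of all genes called. The *Ccl7* difference was not called without young day 10 (1.64) or middle-aged day 10 (1.82). Markers of other cell types moved with it. In cluster 0 the microglial markers summed to 81.7, 59.6, 232 and 222 CPM, the T cell markers to 19.2, 21.9, 56.2 and 63.2 and the monocyte/macrophage markers to 6316, 5819, 7842 and 8155, and their part in the rise was not tested. Without cells that held markers of another lineage, the *Ccl2* rise was 1.47.

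Between the ages, over both days, 1 of 29 tested pairs was called. *Ccl12* rose in cluster 5 of middle-aged mice by 1.88 (SE 0.21, adjusted p = 0.000343), against 0.655% of all genes in that cluster. Fits with 1 library left out dropped the day and had a lone library at 1 age. They could not check the call of any gene in cluster 5. The change of *Ccl12* was 0.11 without middle-aged day 6 and 0.83 without young day 10. It was 2.38 without middle-aged day 10 and 3.85 without young day 6. Without cells that held markers of another lineage it was 2.45 and called, and *Ccl2* in cluster 5 was then called too, at 0.61. That step did not use dendritic cell markers in cluster 5, so cells with them stayed in. In cluster 5 the summed markers of other cell types also differed by age. T cell markers were at 339, 455, 1053 and 1491 CPM, neutrophil markers at 7091, 5474, 15942 and 6375 and dendritic cell markers at 60.6, 18.8, 58.1 and 17.6. Microglial markers were at 163, 148, 284 and 263. Their part was not tested. No member was called in cluster 1 (0.0982% of all genes called), 2 (0.0616%), 7 (0.466%), 8 (0.0956%), 9 (0.600%) or 10 (0.142%). At an unadjusted p below 0.05 there were 1, 0, 1, 2, 0 and 2 members in these clusters, and DESeq2 called 0 in each.

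In cluster 1 the fitted age differences were 0.37 for *Ccl2* (SE 0.22, adjusted p = 1.00), 0.66 for *Ccl7* (SE 0.20, adjusted p = 0.761), -0.01 for *Ccl12* (SE 0.20) and -0.33 for *Ccr2* (SE 0.25). In cluster 10 they were 0.08 for *Ccl2* (SE 0.36), -0.45 for *Ccl7* (SE 0.24), -0.43 for *Ccl12* (SE 0.35) and -0.82 for *Ccr2* (SE 0.23, adjusted p = 0.750). *Ccr2* in dendritic cell-like cells had -0.86 (SE 0.20, adjusted p = 0.0727). It was called without the filter on low counts, and, at -1.02, without cells that held markers of another lineage. For dendritic cell-like cells, monocyte/macrophage markers did not count as another lineage, so cells with them stayed in.

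On day 6 alone, 4 of 22 pairs with 100 or more UMIs differed at least 2-fold by age, where 3.11% of all such pairs of genes and clusters did. These were *Ccl12* in cluster 5 (log2 ratio of middle-aged to young 1.499 [1.38 to 1.62]), *Ccl2* and *Ccr2* in cluster 7 (1.43 and -1.16 [-1.33 to -1.005]) and *Ccl7* in cluster 8 (-1.11 [-1.63 to -0.59]). In cluster 1 *Ccr2* had -0.98, *Ccl2* 0.53 and *Ccl7* 0.73 on that day. The *Ccl2* ratio of cluster 7 was 0.30 without the 10 cells of each library with the most UMIs.

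On day 10, 3 of 22 pairs differed as much, where 0.797% of all pairs did. *Ccl12* in cluster 5 had 2.35 [1.95 to 2.76], *Ccl2* in cluster 7 -1.18 [-1.60 to -0.78] and *Ccr2* in cluster 10 -1.14 [-1.62 to -0.67]. A single cell held 65.9% of the *Ccl2* UMIs of cluster 7 in young mice on day 10, and only 8 and 4 *Ccr2* UMIs were left in cluster 10 without cells that held markers of another lineage, so these 2 ratios have too few UMIs without those cells to be given. Without the 10 top cells of each library, *Ccl12* in cluster 5 had 1.79. In cluster 1 the ratios were 0.10 for *Ccl2*, 0.48 for *Ccl7*, -0.14 for *Ccl12* and 0.22 for *Ccr2*. None of these day-wise ratios has a replicate check.

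Other genes of the pathway were counted from fixed lists. The shares of all genes called for the day, in either direction, are given again for reading these counts, 29.9% in cluster 1, 25.5% in cluster 5, 13.4% in cluster 8 and 6.64% in cluster 10. Of 9 other CC ligands tested in cluster 1, 5 fell and 1 rose from day 6 to day 10. *Ccl4*, which attracts monocytes and T cells, fell by 1.99 (from 1214 and 1138 to 328 and 335 CPM), and *Ccl24*, an eosinophil chemokine, by 2.08. In cluster 10, 1 of 6 was called, *Ccl5* (a rise of 1.62), and *Ccl4* was at 4850, 5121, 5090 and 4847 CPM with a change of 0.14.

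Of 15 genes of the receptors and factors known to induce these ligands, 7 fell and 1 rose in cluster 1, 9 fell and 1 rose in cluster 5, 4 fell in cluster 8 and none was called in cluster 10 by edgeR, where 14 were tested and 5 had an unadjusted p below 0.05. In cluster 1 the interferon-induced factor *Irf1* fell by 1.45 (529 and 466 to 219 and 189 CPM), the adaptor *Myd88* by 1.503 and the NF-kB inhibitor *Nfkbia* by 1.12. In cluster 10 their changes were -0.70, -0.55 and -0.59 and none was called. The median change of the list was -0.49 in cluster 1.

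Among other receptors tested in cluster 1, *Ccr1* fell by 1.20 and the decoy receptor gene *Ccrl2* by 1.22, and *Cx3cr1*, the fractalkine receptor, rose by 2.03. Of 7 signalling genes below CCR2, 1 fell in cluster 1, a share below that of all genes, and edgeR called none in clusters 5, 8 and 10, where 2, 0 and 1 had an unadjusted p below 0.05. Among 8 classical monocyte genes in cluster 1, 5 fell and 3 rose. *Plac8* fell by 2.93, while *Chil3* rose by 0.96 and *Fn1* (fibronectin) by 1.07. All 8 were also called in cluster 10, 5 lower and 3 higher, and their part in the change of *Ccl12* there was not tested. Immediate-early genes, which tissue handling is known to induce, were called lower in 4 and higher in 1 of 12 in cluster 1, against 29.9% of all genes, and edgeR called none in cluster 10, where 4 had an unadjusted p below 0.05. Their part in the changes was not tested.

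Likeness was measured as Pearson's r of log2(CPM + 1) over 57 sums of a cluster and a library, among 9440 genes with 1000 or more UMIs. The sums of a library share its depth and handling, and r is given as a description. *Ccl2* was most like *P2ry6* (0.91), which encodes a nucleotide receptor, and *Csf1r* (0.89), the receptor of macrophage colony-stimulating factor. *Ccl7* was most like the Fc receptor gene *Fcgr1* (0.90), and *Ccl12* most like *Olfml3* (0.87), a microglial gene, with *Fcrls*, another one, at 0.86. *Ccl8* was most like the complement gene *C1qb* (0.75), and *Ccr2* most like *Raph1* (0.89), *Itga1* (0.88) and *Ahnak* (0.87). Between the members, r was 0.85 for *Ccl2* and *Ccl7* and 0.13 for *Ccl2* and *Ccr2*.

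Naive bulk microglia held all 5 genes without EAE. With 1 library per age (79373420 and 76293436 counts) there was no replicate and no test. *Ccl2* had 2218 counts in the young and 4167 in the middle-aged library, 27.9 and 54.6 CPM (counts per 1000000 counts of the library), a log2 ratio of 0.97 [0.89 to 1.04]. That ratio was above those of 98.7% of genes with 100 or more counts. *Ccl12* had 2093 and 3094 counts (0.62 [0.54 to 0.70]) and *Ccl7* 414 and 641 (0.69 [0.51 to 0.87]). *Ccr2* had 1223 and 961 (-0.29 [-0.41 to -0.17]), and *Ccl8* 36 and 26. In bulk libraries, fewer cells of a type and less RNA per cell cannot be told apart.

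None of the 4 members with 100 or more counts differed 2-fold, where 8.08% of 14821 such genes did (172 higher and 1026 lower in middle-aged mice). In RPKM, which divides by exon length and library total, *Ccl12* stood at 49.1 and 75.5, *Ccl2* at 24.6 and 48.0, *Ccl7* at 6.51 and 10.5, *Ccr2* at 2.28 and 1.86 and *Ccl8* at 0.888 and 0.667. *Ccl12* was thus above *Ccl2* at both ages on this scale.

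Other genes moved with age in the same pair of libraries. *Ccl3*, *Ccl4* and *Ccl5* were 2-fold higher or more in middle-aged mice (log2 ratios 1.37, 1.19 and 2.35), of 6 other CC ligands with 100 or more counts. All 12 immediate-early genes were higher in middle-aged mice, summing to 8517 and 12185 CPM. Endothelial markers summed to 637 and 155, with 9 of 9 at least 2-fold lower, and border macrophage markers to 219 and 103, with 4 of 5 at least 2-fold lower. Microglial markers summed to 32034 and 30100 (10 of 10 detected). Of the 7 classical monocyte genes with 100 or more counts, 3 were higher in middle-aged mice. *Fn1* had a ratio of -2.23, *F13a1* of -0.98, *Chil3* of 0.33 and *Plac8* of 1.09. What these moves contribute to the ratios of the 5 genes was not tested.

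**Figure D5:**
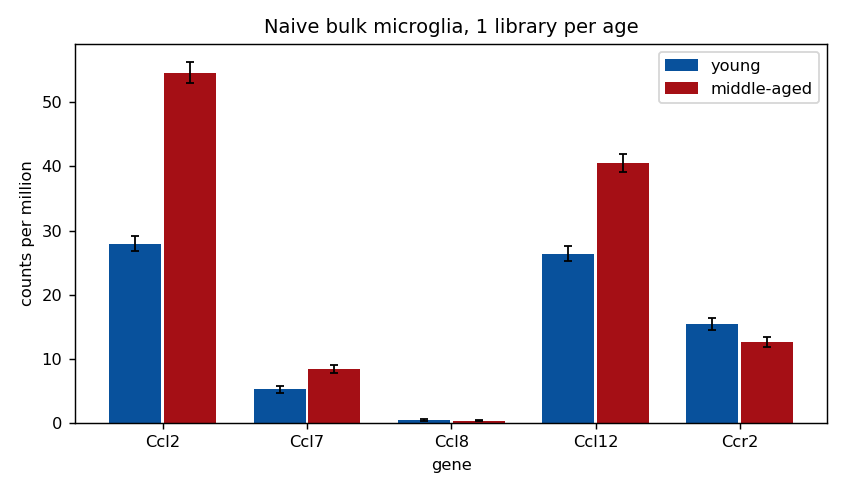
CPM of the 5 genes in the 2 naive bulk microglia libraries, 1 bar per age from 0, with 95% intervals for counting error. *Ccl2* is 27.9 in young and 54.6 in middle-aged mice.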

How the data were processed

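The 5 genes, the gene lists and the tests were chosen with earlier results of these data known. For the single cells, the authors counted UMIs with Cell Ranger 3.1.0 (submitters' processing notes) on mm10, filtered cells in Seurat and clustered them at a resolution of 0.4. They deposited unnormalized UMI counts. Each cell's deposited cluster number was used unchanged. In bulk, the authors deposited unnormalized counts of reads by gene from featureCounts. Strand was not used.

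UMIs were summed by cluster and library and divided by their total. Clusters 1, 2, 5, 7, 8, 9 and 10 were chosen for testing, each with 20 or more cells in every library. Clusters 0, 3, 4, 6, 11 and 13 also had that many cells but were not among the 7. Genes with 10 or more counts in 2 or more libraries were tested with edgeR 4.0.16 (TMM, quasi-likelihood, day and age in the model, R 4.3.3), with Benjamini-Hochberg adjustment within a cluster. The threshold was an adjusted p of 0.05. Ratios within a day and in bulk have exact conditional binomial 95% intervals, shares have exact Clopper-Pearson ones, and all cover counting error only. Levels and intervals were computed in Python 3.11.15 (pandas 2.3.3, scipy 1.17.1). Cluster 0 and the differences between clusters were fitted after seeing the data.

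On simulated data, 200 genes above a minimum mean count were changed 4-fold, with 1 fixed dispersion for all genes. The fit recovered 98.0% (age) and 97.5% (day) of them in cluster 1, among 12037 and 12044 genes. In cluster 10 it recovered 94.0% and 96.0%, among 10379 and 10370. The differences between clusters 10 and 1, 10 and 5, and 0 and 1 recovered 61.0%, 61.0% and 75.5%, among 11457, 10367 and 11334 genes. Smaller changes were not simulated, so these shares do not apply to them. No doublet caller was run. An alternative left out each cell in which the markers of a foreign lineage reached 2 UMIs, or 5 for neutrophil markers. Not counted as foreign were dendritic cell markers in clusters 1 and 5, monocyte/macrophage markers in cluster 7 and T cell markers in cluster 9. Cluster 8 was handled as microglia in this step, so microglial markers were not foreign there. Other alternatives were RLE factors, DESeq2 1.42.0, no filter, 1 factor, each library left out, cells of 2000 or more UMIs, and the 10 top cells left out. Named were the 5 members, up to 4 genes per list (those with the highest CPM or the largest change among genes with 100 or more UMIs), and, for likeness, genes from the 5 highest r of each member. No promoter of *Ccl2* or *Ccl7* and no protein sequence was used here. With 1 library left out, the other factor was dropped from the day and age fits, and a lone library was taken to vary like the others. Results of some list genes are not reported here.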

Additional observations from a re-analysis of the deposited data

Results flagged for a closer look

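The day change of 3 ligands differed between clusters by a test of the difference itself, in fits chosen after the values were seen. In microglia-like cluster 10, the change of *Ccl2* exceeded that of cluster 1 by 2.25 and that of cluster 5 by 2.12 on the log2 scale. For *Ccl7* the differences were 2.29 and 2.12, and for *Ccl8*, on 68 UMIs in cluster 10, they were 5.47 and 5.29. Neutrophil-like cluster 0 exceeded cluster 1 by 3.58 for *Ccl2*, which rose in cluster 0 and fell in cluster 1, and by 1.75 for *Ccl7*, which fell in both. The *Ccl2* differences passed the threshold with each library left out. The *Ccl7* difference between clusters 0 and 1 did not without young day 10 (1.64) or middle-aged day 10 (1.82), and that between clusters 10 and 5 did not without cells that held markers of another lineage (1.03). The *Ccl8* difference between clusters 10 and 1 did not pass without such cells (5.65), and that between clusters 10 and 5 could not be fitted without them or without 3 of the 4 libraries. A library with 0 *Ccl8* UMIs enters both *Ccl8* values, so their size depends on the fit.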

How the results depend on the processing

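No paired analysis was possible because the labels carry no replicate numbers. The 18 calls for the day became 18 with RLE factors, 13 with DESeq2, 19 without the filter, 13 without age in the model and 16 without cells that held markers of another lineage. With 1 library left out they ran from 8 (without young day 10; 10 without middle-aged day 10) to 18. The single call for age stayed 1 with RLE factors and with DESeq2. It became 2 without the filter and 3 without cells with markers of another lineage. It became 0 without the day in the model, where 0 of 10379 genes of cluster 5 were called, so that fit could not check it. Fits with 1 library left out could not check it either, as said above. The 3 pairs that differed 2-fold on day 10 became 1 without cells with markers of another lineage and 1 without the 10 top cells. The change of *Ccl2* in cluster 10 ran from -0.26 to 0.16 with 1 library left out, turning to 0.16 without middle-aged day 6 and 0.06 without middle-aged day 10, and that of *Ccr2* ran from -1.03 to 0.11, turning without the latter. The difference of *Ccl12* between clusters 10 and 5 ran from -0.57 to 2.02, turning to -0.57 without middle-aged day 6 and -0.35 without young day 10. With TMM factors in place of totals, the day 6 age ratios of cluster 1 shifted up by about the same amount, to 0.65 for *Ccl2*, 0.14 for *Ccl12* and -0.86 for *Ccr2*. Thinning each cell to 2000 UMIs lowered the shares of cells with a UMI, from 79.9%, 97.7%, 86.5% and 85.0% to 72.0%, 91.6%, 73.2% and 69.4% for *Ccl2* in cluster 10, and to 50.2%, 54.5%, 21.6% and 23.4% in cluster 1. For *Ccl12* in cluster 10 they became 81.5%, 79.0%, 50.1% and 49.7%, and for *Ccr2* in cluster 1 60.1%, 39.6%, 29.8% and 33.4%. Of the other values, 401 counted as unchanged. For tested changes this meant the same direction and side of the threshold, and for untested ratios a value within the counting interval. Outside that interval 51 ratios moved, and 44 tested changes lost and 3 gained a call. A further 5 values reversed, which for untested ratios was counted only where the main value was at least 2-fold. The causes were not tested. With 1 library per age and day, no result separates the ages from differences between pools of mice.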
